A study of Homo sapiens with 4 samples.

Results

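The S100 genes on the long arm of chromosome 1, in band 1q21, were examined for acetylation of histone H3 at lysine 14 (H3K14ac) in MKN45 gastric cancer cells. The 10 genes S100A10, S100A11, S100A9, S100A8, S100A6, S100A4, S100A3, S100A2, S100A16 and S100A14, in this order along the arm, were taken out of 20033 protein-coding genes, and were chosen by the fold of the knockdown region beside S100A2, one of the strongest in that list. The genes and lists were thus chosen with results of these data known. A gene counted as marked when a deposited region overlapped its RefSeq span extended by 3 kb on each side.

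The study compared MKN45, an established human gastric cancer cell line, carrying a short hairpin RNA against NIT2 (shNIT2) with the same line carrying the control hairpin shNT. NIT2 is an omega-amidase of glutamine metabolism, which the series title links to a brake on respiration and to the response of gastric cancer to fluorouracil. Each condition had 1 H3K14ac library made by chromatin immunoprecipitation followed by sequencing, and 1 input library of chromatin without antibody, which was not used here. Both conditions were grown in the same medium. The labels name no drug treatment and do not say whether the hairpin cells are 1 clone. With 1 library per condition, no difference below has a replicate check or a test.

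S100 proteins are small calcium-binding proteins with EF-hand motifs that mostly act as dimers and change the activity of partner proteins when calcium rises. In humans most of their genes lie in 1q21 around the epidermal differentiation complex, which holds the genes of the cornified envelope of skin. Epithelial cells commonly express S100A2, S100A6, S100A10, S100A11, S100A14 and S100A16, while S100A8 and S100A9 are known from neutrophils, monocytes and inflamed epithelium. H3K14ac is a mark found at active promoters and enhancers.

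The libraries differed in fragment pileup and in background. The median number of fragments piled up at a summit, worked out from the deposited fold and −log10 p of each peak, was 22 in the shNIT2 list of 28187 regions and 6 in the shNT list of 39876 regions. The background floors were 2.48 and 0.278 fragments in shNIT2 and shNT, a ratio of 8.93. A region missing from a list was not called there, which does not show that the mark is absent. The epithelial markers EPCAM, CDH1, KRT8, KRT18 and KRT19 were marked in both lists, 5 of 5. The mesenchymal markers VIM, CDH2 and ZEB1 were marked in 2 of 3 cases in shNIT2 and 1 of 3 in shNT. The blood cell markers PTPRC, CD3D and ITGAM were marked in 2 of 3 cases in each list. Among all protein-coding genes 49.1% were marked in the shNIT2 list and 31.0% in the shNT list.

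The sequences before 6 of the start sites are shown, because regions of the lists cover, flank or miss them. Each is the 250 bases upstream of a RefSeq start site (GRCh38.p14, 5′ to 3′ on the gene's own strand). Capitals mark every match, on either strand, to the AP-1 motif TGANTCA, the GC box GGGCGG, the TATA box TATAAA or the CCAAT box CCAAT. S100A2 (chr1:153565845-153566094, minus strand) holds the summit of a knockdown region and lies wholly within it. S100A10 (chr1:151993860-151994109, minus strand) and S100A11 (chr1:152037005-152037254, minus strand) lie wholly within a knockdown region. S100A6 (chr1:153535992-153536241, minus strand) lies in a gap between 2 knockdown regions. S100A9 (chr1:153357604-153357853, plus strand) and S100A8 (chr1:153391074-153391323, minus strand, the second of 3 listed start sites) lie in a stretch with no region in either list.
S100A2: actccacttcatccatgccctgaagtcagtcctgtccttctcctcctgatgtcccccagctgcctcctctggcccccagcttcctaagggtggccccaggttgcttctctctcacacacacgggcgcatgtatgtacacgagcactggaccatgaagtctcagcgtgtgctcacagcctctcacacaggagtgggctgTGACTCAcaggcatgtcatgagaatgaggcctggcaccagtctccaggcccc
S100A10: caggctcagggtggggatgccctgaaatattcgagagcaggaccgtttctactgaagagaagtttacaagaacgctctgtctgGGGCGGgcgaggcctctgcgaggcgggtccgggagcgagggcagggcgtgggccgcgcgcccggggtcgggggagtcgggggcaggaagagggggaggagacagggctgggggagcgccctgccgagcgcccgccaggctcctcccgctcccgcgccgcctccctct
S100A11: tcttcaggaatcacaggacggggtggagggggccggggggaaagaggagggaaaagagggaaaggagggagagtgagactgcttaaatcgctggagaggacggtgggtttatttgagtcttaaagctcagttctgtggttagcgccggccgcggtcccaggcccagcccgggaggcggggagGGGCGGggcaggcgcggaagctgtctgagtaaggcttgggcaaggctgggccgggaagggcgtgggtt
S100A6: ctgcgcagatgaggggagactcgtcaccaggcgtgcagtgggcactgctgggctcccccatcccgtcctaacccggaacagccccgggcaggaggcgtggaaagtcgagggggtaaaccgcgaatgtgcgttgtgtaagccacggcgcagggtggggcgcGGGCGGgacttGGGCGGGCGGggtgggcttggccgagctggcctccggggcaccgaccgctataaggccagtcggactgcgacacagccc
S100A9: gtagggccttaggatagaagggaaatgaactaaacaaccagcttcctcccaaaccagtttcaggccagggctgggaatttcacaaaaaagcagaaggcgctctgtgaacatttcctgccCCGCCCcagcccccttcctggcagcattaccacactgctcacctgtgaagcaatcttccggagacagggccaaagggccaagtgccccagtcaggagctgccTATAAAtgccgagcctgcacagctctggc
S100A8: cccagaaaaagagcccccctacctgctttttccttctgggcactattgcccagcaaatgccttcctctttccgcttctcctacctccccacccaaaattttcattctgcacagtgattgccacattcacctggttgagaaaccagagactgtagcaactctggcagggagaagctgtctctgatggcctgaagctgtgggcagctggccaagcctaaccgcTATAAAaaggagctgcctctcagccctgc

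By the outermost start site of each gene, the AP-1 motif was present before 2 of the 10 genes, S100A2 and S100A3, and in 5.00% of the 15842 promoters of protein-coding genes with a sequence of this length. In S100A2 it began at position -52, counted from the start site. The GC box was present before S100A10, S100A11, S100A6, S100A3 and S100A9, 5 of 10 genes, and in 55.8% of all promoters. The TATA box was found before S100A4 and S100A9, 2 of 10 genes, and in 9.35% of all promoters. In S100A8 it stands before the second listed start site, the one shown, and not in the window of the outermost one. The CCAAT box was found before S100A3 and S100A8, again 2 of 10, against 34.5% of all promoters. S100A10 and S100A6 had 71.2% and 70.0% G and C, with 24 CpG pairs each, where the median over all promoters was 62% and 17 pairs. S100A2 (59.2%), S100A8 (51.2% at its outermost site) and S100A9 (55.6%) had 4, 2 and 4 CpG pairs. These matches describe the letters of the windows and do not show that a factor binds there.

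Of the 10 genes, 8 were marked in the shNIT2 list and 4 in the shNT list. Among all protein-coding genes 49.1% were marked in shNIT2 and 31.0% in shNT. Among the 5574 genes of 1 to 11 kb, the length of every member except S100A8, 35.6% and 11.5% were marked in shNIT2 and shNT. S100A10, S100A4, S100A3 and S100A2 were marked in both lists, where 21.4% of all genes were. S100A11, S100A6, S100A16 and S100A14 were marked in shNIT2 alone, 4 genes, where 27.7% of all genes were. No gene was marked in shNT alone, 0 of 10 (9.56% of all genes). S100A8 and S100A9 were marked in neither list, 2 of 10 (41.3% of all genes). Since the genes were chosen with these lists known, nothing is read from their counts against the background.

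**Figure D1:**
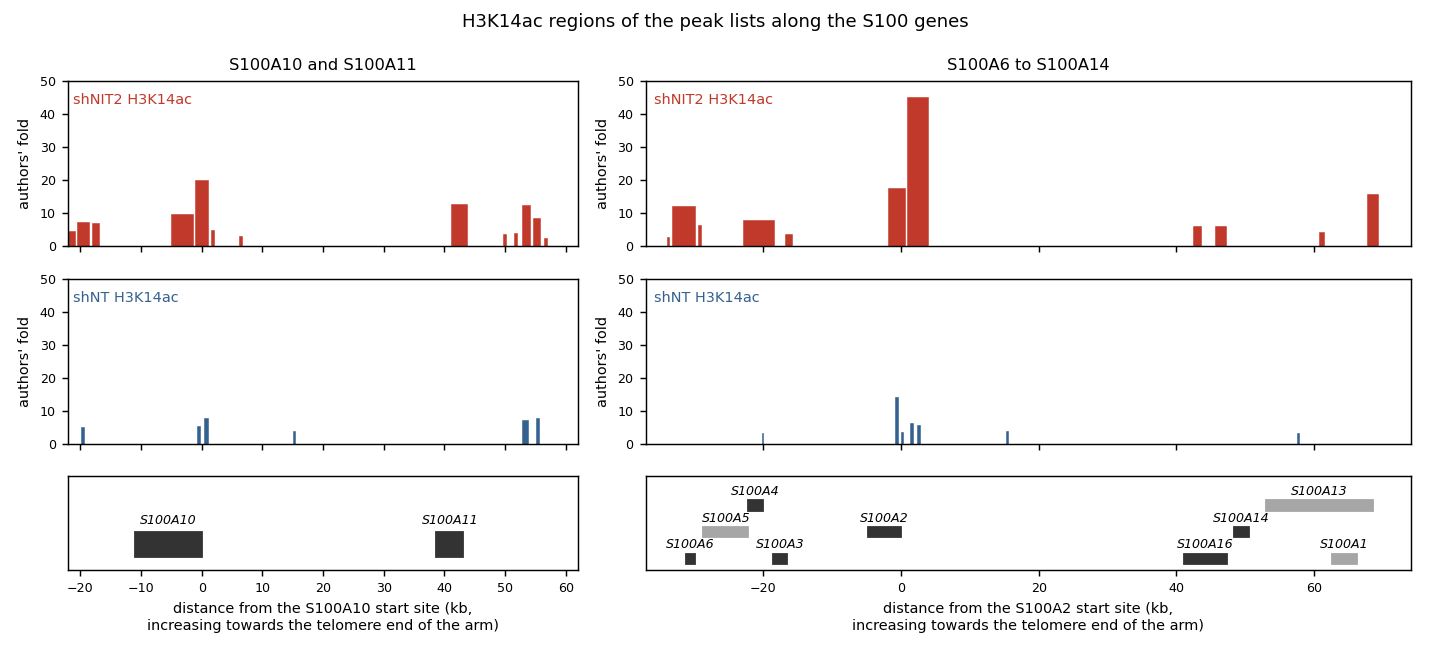
Regions of the shNIT2 list (top row) and the shNT list (middle row) along the S100 genes (bottom row, the genes studied in black and their S100 neighbours in grey). Width is the extent of a region and height is the authors' fold, which ranks regions within a list and is not compared between the lists; the tallest region, 45.2-fold, stands just to the right of S100A2 in shNIT2.

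The windows of the 10 genes, merged into 8 stretches of 120377 bp in all, held 13 shNIT2 regions and 7 shNT regions. The shNIT2 regions covered 25856 bp or 21.5% of the windows, and the shNT regions covered 2891 bp or 2.40%. Over the windows of all protein-coding genes the covered shares were 1.12% in shNIT2 and 0.273% in shNT. Those windows take genes of every length and are not matched to the mostly short members. The member windows also hold the region that chose the cluster, so nothing is read from the contrast. The shNIT2 regions were wide, with a median of 2164 bp (313 to 4432 bp) against 573 bp over that list. The shNT regions had a median of 403 bp (243 to 711 bp) against 366 bp over their list. All 7 shNT regions overlapped an shNIT2 region, and 4 of the 13 shNIT2 regions overlapped an shNT region. Over the whole lists, 11.7% of the shNIT2 regions and 9.06% of the shNT regions were shared. In fold, 11 of the 13 shNIT2 regions and 5 of the 7 shNT regions stood above the median of their own list.

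The local background in these windows was 3.71 to 5.74 fragments in shNIT2, against a list median of 4.25, and 0.386 to 0.937 fragments in shNT, against a list median of 0.387. Its part in the counts was not tested.

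S100A2, a nuclear S100 protein of squamous and basal epithelial cells, carried the single strongest region of the cluster in each list. The gene spans chr1:153561108-153565844 on the minus strand. In shNIT2 it had 2 regions. The stronger, chr1:153566771-153569799, lay 926 bp upstream of the gene, with 244 fragments at its summit (95% exact Poisson interval 214 to 277, counting error only) and a fold of 45.2. It was the region that chose the cluster, and it ranked 3 of 28187 by fold.

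The other shNIT2 region of S100A2, chr1:153563963-153566465, covered the start site, with its summit 184 bp upstream of it. It had 95 fragments (76.9 to 116) and a fold of 17.6, rank 266. A gap of 305 bp parted the 2 regions.

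In shNT, S100A2 had 4 narrow regions of 243 to 462 bp. The strongest, chr1:153564957-153565359, lay inside the gene with its summit 676 bp downstream of the start site, and had 20 fragments (12.2 to 30.9) and a fold of 14.04, rank 836 of 39876. The second, chr1:153565878-153566120, lay just before the start site with 4 fragments (1.09 to 10.2). The third, chr1:153567119-153567580, and the fourth, chr1:153568215-153568561, fell within the strongest shNIT2 region, with 8 fragments (3.45 to 15.8) and 7 fragments (2.81 to 14.4).

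The highest point at S100A2 lay upstream in the shNIT2 library and inside the gene in the shNT library. In shNIT2 the upstream region had 244 fragments and the one at the start site 95. In shNT the highest value of the upstream regions was 8 fragments, the region just before the start site had 4, and the one inside the gene had 20. The shNIT2 region at the start site contains both the shNT region inside the gene and the one just before the start site. Over that stretch, upstream was higher in shNIT2 (244 against 95 fragments) and lower in shNT (8 against 20). Set against its strongest overlapping shNT region, the upstream shNIT2 region had 30.5 times the fragments, and the one at the start site 4.75 times. Against the weaker overlapping shNT regions these ratios were 34.9 and 23.75, which are not comparable with the median below. The ratios 4.75 and 23.75 use the same 95 fragments. Their summit lay upstream of the start site, so 4.75 holds no shNIT2 value from inside the gene. The median over 3300 shNIT2 regions, each set against its strongest overlapping shNT region, was 5.50, with quartiles of 3.80 and 8.02. These ratios take the highest point of each region, which need not be the same base, and the summits of the 4 pairs lay 114 to 1383 bp apart. The upstream shNIT2 value was used to choose the cluster, so these orders and ratios describe 1 library each and were not tested.

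**Figure D2:**
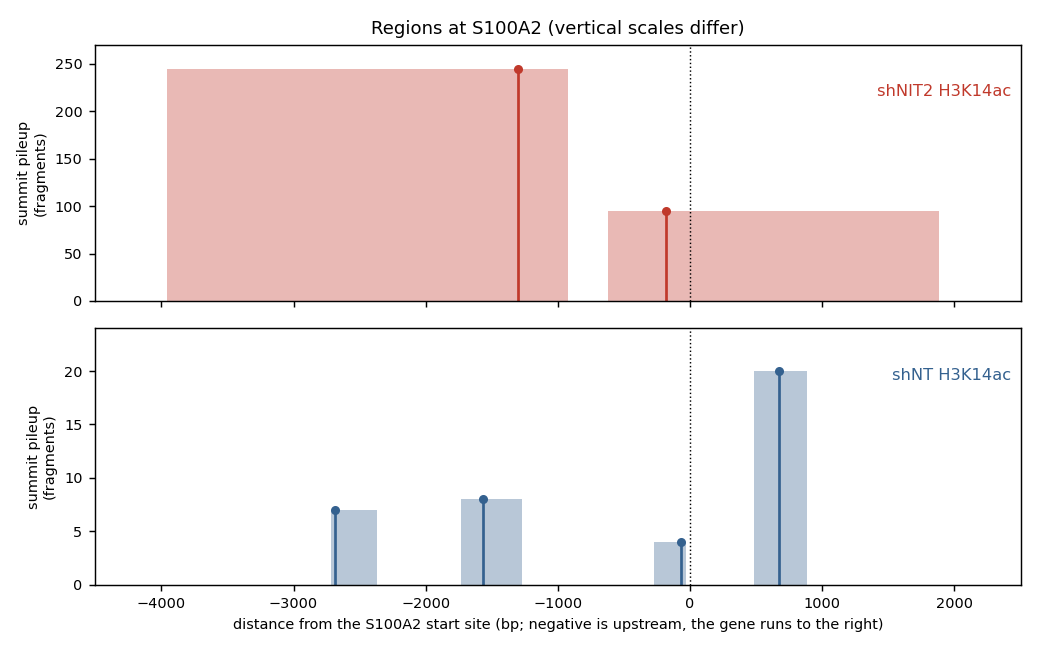
Regions at S100A2 in shNIT2 (top) and shNT (bottom), by distance from the S100A2 start site in bp, with the gene running to the right. Each block spans a region, its height and dot give the fragments at the summit, and the vertical scales differ; the tallest block is upstream in shNIT2 (244 fragments) and inside the gene in shNT (20 fragments).

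Among 3879 protein-coding genes of other chromosomes that were marked in both lists, the 3 closest to S100A2 in the within-list percentiles of their strongest regions were MDM2, KRT8 and ATP9A. S100A2 stood at percentile 99.99 in shNIT2 and 97.9 in shNT. MDM2, a ubiquitin ligase, stood at 99.98 and 98.4 in shNIT2 and shNT. KRT8, a keratin of simple epithelium, stood at 99.7 and 98.3, and ATP9A, a lipid flippase, at 99.7 and 97.3. Their distances to S100A2 were 0.490, 0.499 and 0.621 percentile points, measured over 2 libraries only. The shNIT2 percentile of S100A2 is that of the region that chose the cluster. The spans of MDM2, KRT8 and ATP9A are longer than that of S100A2, so more regions could supply their strongest one. The likeness is in rank only and was not tested.

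The annexin-binding members S100A10 and S100A11 followed in strength. S100A10, which joins annexin A2 in a complex at the plasma membrane, spans chr1:151982915-151993859. Its strongest shNIT2 region, chr1:151992758-151994921, covered the start site with 104 fragments (85.0 to 126) and a fold of 20.0, rank 170. A second shNIT2 region of 3718 bp ran inside the gene, 298 bp away, with 48 fragments (35.4 to 63.6). A weaker one upstream had 22 fragments.

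In shNT, S100A10 had 2 regions on either side of its start site. The upstream one, chr1:151994225-151994935, had 10 fragments (4.80 to 18.4) and a fold of 7.74, and the one inside the gene had 7 fragments (2.81 to 14.4). The start site itself fell in the 675 bp between them. Both overlapped the strongest shNIT2 region, whose summit had 10.4 times the fragments of the upstream one and 14.9 times those of the one inside the gene.

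S100A11, a partner of annexin A1 that acts in keratinocyte growth control and membrane repair, spans chr1:152032506-152037004. Its single shNIT2 region, chr1:152034931-152037591, covered the start site with 72 fragments (56.3 to 90.7) and a fold of 12.7, rank 869. No shNT region lay within its window, and the nearest began 9688 bp beyond the gene.

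S100A6, S100A4 and S100A3 come just before S100A2 in the order of the genes studied, and had little in shNT. Wide shNIT2 regions lay at S100A6 and S100A4, and that of S100A4 reached 83 bp into S100A3. S100A6, or calcyclin, binds the ubiquitin ligase adaptor CACYBP and spans chr1:153534599-153535991. In shNIT2 it had 3 regions of 61, 42 and 15 fragments. The strongest, chr1:153532600-153535977, was 3378 bp wide with a fold of 12.2 and ended 14 bp short of the start site, and the next began 344 bp further on. The start site of S100A6 was therefore flanked on both sides and not covered. In shNT no region lay in its window, and the nearest was 9634 bp away.

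S100A4, or metastasin, binds non-muscle myosin and is known from cell motility and metastasis. Its span chr1:153543621-153545806 lay wholly inside a shNIT2 region, chr1:153542980-153547411, the widest at these genes (4432 bp, width rank 118 of the list), with 53 fragments (39.7 to 69.3) and a fold of 8.01. In shNT a region of 247 bp, chr1:153545625-153545871, covered its start site with 5 fragments (1.62 to 11.7) and a fold of 3.10, near the bottom of that list (percentile 3.32).

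S100A3, a cysteine-rich protein of the hair cuticle, shared both of these regions with S100A4. They reached into its window from the side of S100A4, and the shNT region lay 1457 bp outside the gene. With no extension, with 1 kb, or given to its nearest gene, that region leaves S100A3 unmarked in shNT. The start site of S100A3 was covered by a second, weaker shNIT2 region, chr1:153549064-153549957, with 19 fragments (11.4 to 29.7) and a fold of 3.66.

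S100A16 and S100A14, a neighbouring pair of epithelial S100 genes, had the weakest of the marked values in shNIT2 and no shNT region. S100A16 spans chr1:153606883-153613137 and had shNIT2 regions of 38 fragments (26.9 to 52.2) and 29 fragments (19.4 to 41.6), both inside the gene, with folds of 6.21 and 6.11. The first covered the inner of its 2 listed start sites. S100A14, chr1:153614255-153616325, was marked only by the second of these, which lay 1257 bp outside it and wholly inside S100A16. Given to its nearest gene, that region leaves S100A14 unmarked. The nearest shNT region began 7053 bp from S100A14, with a fold of 3.08.

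S100A8 and S100A9, the subunits of calprotectin, had no region in either list. The stretch from S100A9 to S100A7 with 3 kb on each side, 108.8 kb in all, held 0 regions in shNIT2 and 0 in shNT. The nearest shNIT2 region lay 125187 bp from S100A9 and 88635 bp from S100A8. The nearest shNT region lay 78721 bp and 110899 bp from them. The RefSeq span of S100A8 is 32552 bp long and takes in most of S100A7A, so the window of S100A8 is wider than that of the other genes and still held no region.

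**Figure D3:**
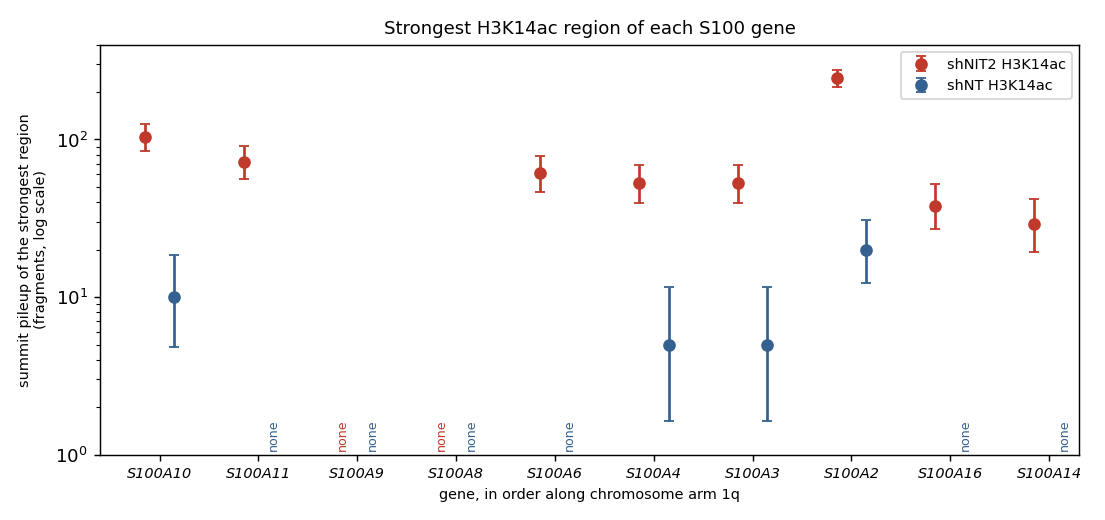
Fragments at the summit of the strongest region of each gene, on a log scale, in shNIT2 (left, red) and shNT (right, blue), with 95% exact Poisson intervals that cover counting error only. The word none marks a gene with no called region; values run from 29 to 244 fragments in shNIT2 and from 5 to 20 in shNT, and the libraries differ in background.

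Coverage was also taken over stretches of the arm, with limits set at S100 genes and 3 kb beyond them. From S100A6 to S100A2, 37.2 kb with the flanks, shNIT2 regions covered 37.9% and shNT regions 4.57%. From S100A10 to S100A11, 60.1 kb, they covered 16.2% in shNIT2 and 2.38% in shNT. From S100A16 to S100A14, 15.4 kb, they covered 16.7% in shNIT2 and 0 bp in shNT. Between S100A11 and S100A9, 1315 kb that hold the cornified envelope genes, they covered 1.41% and 0.379% in shNIT2 and shNT. From S100A9 to S100A7 the covered length was 0 bp in both lists. The limits follow genes chosen with these lists known. The stretch from S100A6 to S100A2 also holds part of the region that chose the cluster. Nothing is read from the contrast between stretches.

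Of 14 listed start sites of the 10 genes, 6 lay inside a shNIT2 region and 1, that of S100A4, inside a shNT region. Of the 22182 listed start sites of all protein-coding genes, 7.70% lay inside a shNIT2 region and 0.243% inside a shNT region. The 250 bases before the outermost start site were wholly within a shNIT2 region for 5 genes, S100A10, S100A11, S100A4, S100A3 and S100A2, and for 0 of the 10 within a shNT region. Over all 15842 promoters the shares were 3.98% in shNIT2 and 0.0252% in shNT. These windows touched no shNIT2 region for the other 5, S100A6, S100A16, S100A14, S100A8 and S100A9. In shNT, 217 of the 250 bases were covered at S100A2, 65 at S100A4 and 0 at the other 8 genes. The genes, S100A2 among them, were chosen with these lists known, so nothing is read from the shares against all start sites or promoters.

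**Figure D4:**
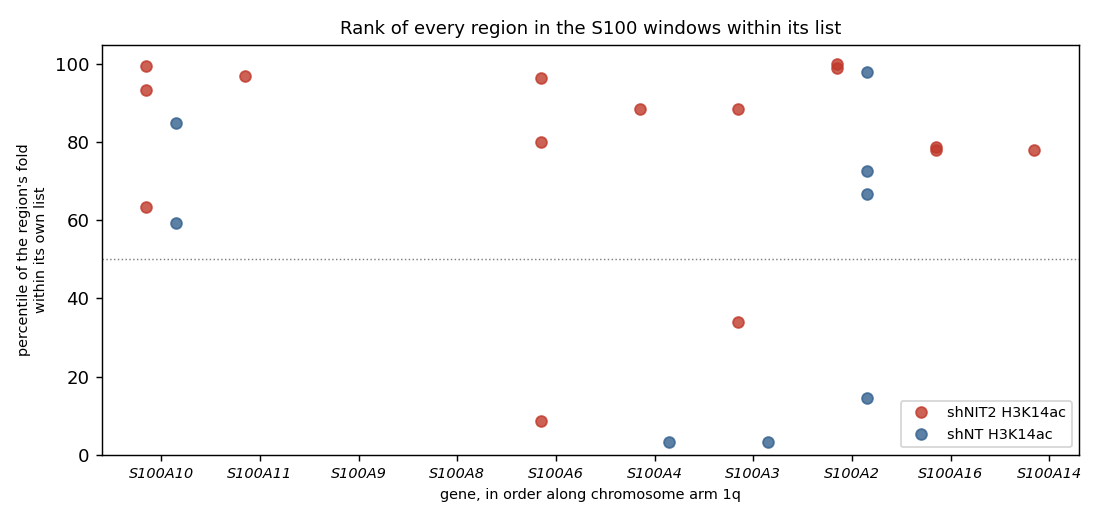
Percentile of the authors' fold of every region in the S100 windows within its own list, in shNIT2 (left, red) and shNT (right, blue), with the list's median at the dotted line. S100A2 stands at 99.99 and 99.1 in shNIT2 and at 97.9, 72.6, 66.8 and 14.5 in shNT, while the shNT region of S100A4 and S100A3 stands at 3.32.

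When the fragments and the background of each shNIT2 region were divided by the floor ratio of 8.93 and held to the lowest −log10 p of the shNT list (3.37), 9 of the 13 shNIT2 regions were kept, and 21.7% of the whole list. Of the 9 kept regions, 5 overlapped no shNT region, as did 68.9% of all kept shNIT2 regions. They were the second region of S100A10 (5.37 fragments after division), that of S100A11 (8.06), 2 of S100A6 (6.83 and 4.70) and the first of S100A16 (4.25). The strongest region of S100A2 came to 27.3 fragments after division, beside 8 and 7 in the shNT regions it overlaps, and the one at its start site to 10.6, beside 20 and 4. Marked in shNIT2 after this division were 7 of the 10 genes, all but S100A14 of the earlier 8, and 17.3% of all protein-coding genes. The ratio of the floors depends on fragment length as well as depth, so this is an approximate adjustment. The strongest region of S100A2 chose the cluster and is among the 9 kept. Nothing is therefore read from these values or from the counts against the whole list and all genes.

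Of 7 further S100 entries in 1q21, 3 were marked in shNIT2 and 2 in shNT, where 49.1% and 31.0% of all protein-coding genes were. Nothing is read from these counts. S100A13 and S100A1 shared the same 2 shNIT2 regions. The stronger lay at the start of S100A13, chr1:153633541-153635139, with 93 fragments and a fold of 15.8. S100A13, and not S100A1, had a shNT region, of 3 fragments. S100A5 lies between S100A6 and S100A4 and shared their regions. S100A7, S100A7A, S100A12 and the pseudogene S100A7L2 were marked in neither list. Among 4 S100 genes on other chromosomes, S100P had a fold of 4.60 on 15 fragments in shNIT2 alone, and S100G had 4.86 on 6 fragments in shNT alone. S100Z was marked in both lists, with 3.74 on 18 fragments in shNIT2 and 6.49 on 8 in shNT, and S100B in neither.

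Of 18 genes for partners and receptors of S100 proteins, 11 were marked in shNIT2 and 9 in shNT, with 9 in both. Among all protein-coding genes the shares were 49.1%, 31.0% and 21.4%, and nothing is read from the counts. MYH9, the myosin bound by S100A4, led in shNIT2 with a fold of 21.9 on 114 fragments, followed by ANXA2, the partner of S100A10, with 16.7 on 57, and ANXA11 with 13.3 on 58. In shNT the highest folds belonged to ANXA2 with 6.26 on 7 fragments, TP63 with 5.55 on 7 and MYH9 with 5.42 on 8. Many of these genes are long, and a longer span meets a region more often.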

How the data were processed

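Per the submitters' processing notes, the authors worked on the build hg38 with Bowtie2 2.2.6 and MACS2 2.1.1, and also with ChIPseeker, FastQC, Trimmomatic 0.35 and cutadapt 1.9.1. The sources used here do not state the role of the inputs in peak calling or the handling of duplicate reads. The authors called each list on a single library. For every peak the deposited columns give a score (not used), a fold (the ratio of summit pileup to background, with a pseudocount of 1 on each), −log10 values of p and q, and the summit's offset. Total reads per library are unknown.

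Summit pileup and background were solved from the deposited fold and −log10 p-value with the Poisson upper tail, accepting a whole pileup within 0.1% of the −log10 p. This gave a pileup for 100% of the shNIT2 regions and all but 1 of the shNT regions, and for 600 of 600 simulated regions per list. Genes, start sites and sequences came from RefSeq tables (GRCh38.p14, the same chromosomes as hg38). Of the 20033 protein-coding genes on chromosomes 1 to 22, X and Y, 15842 had a promoter sequence, including all 10 members. Coordinates are 1-based, and overlap meant at least 1 bp.

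The members and gene lists were chosen with earlier results of these data known. Every member is named. Of the other lists, S100 genes are named, and other genes when their strongest region is among the 3 highest folds of the list. A further partner gene was left out of that list and its counts and is not reported here. Alternatives were other windows, stricter q and fold thresholds, equal numbers of regions, a 50% overlap, division to control depth and, added after seeing the data, giving regions to the nearest gene. Python 3.11.15 and scipy 1.17.1 were used.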

Additional observations from a re-analysis of the deposited data

How the results depend on the processing

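Of 103 values under alternatives, 70 stayed within 1.5 times the reported count and 33 did not, most of them values of the shNT list or of its overlap with shNIT2. No paired analysis was possible because each condition had 1 H3K14ac library, and no replicate could be left out. The shNIT2 list marked 7 or 8 of the 10 genes under every alternative run. With no extension of the genes, windows held 3 shNT regions, all 3 shared, and 15196 bp covered in shNIT2 and 1063 bp in shNT, and 1 other S100 gene of 1q21 was marked in shNT, as with 1 kb. With 10 kb, shNT marked 7 members, 7 were marked in both lists and 1, S100A16, in shNIT2 alone, with 20 shNIT2 regions. At −log10 q of at least 5, shNT marked 2 members, both of them shared with shNIT2, by 4 regions of 1923 bp, all 4 shared, and 0 other S100 genes. At 10, shNT marked S100A2 alone, so that 7 members were marked in shNIT2 alone and 1 in both, by 1 region of 403 bp that overlapped 1 shNIT2 region, and 0 other S100 genes. At a fold of at least 5, and with equal numbers of strongest regions, shNT marked 2 members, both in both lists, and 0 other S100 genes. At gene ends of 1 kb, shNT marked 0 other S100 genes. With a 50% overlap, 0 shNIT2 and 0 shNT regions were shared. The cause of these moves was not tested, beyond the smaller number of regions or the wider windows that the settings themselves give. The shNT regions at these genes rest on 4 to 20 fragments each and the shNIT2 regions on 15 to 244.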

Other observations

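Between S100A11 and S100A9 the shNIT2 list had 20 regions and the shNT list 12. The strongest in shNIT2, chr1:152979973-152983825, lay within 3 kb of SPRR1A, a small proline-rich protein of the cornified envelope, with a fold of 17.5 on 117 fragments. The shNT list had 2 regions inside it, each of 4 fragments. Of 34 cornified envelope genes of 1q21, 3 were marked in shNIT2 (SPRR1A, SPRR4 and SPRR3) and 2 in shNT (SPRR1A and LCE1F, the second on 3 fragments). Of the 7 fused-type S100 genes, which join an S100 domain to long repeats as in filaggrin, 0 were marked in either list. Among all protein-coding genes 49.1% were marked in shNIT2 and 31.0% in shNT. Among genes of 1 to 11 kb the shares were 35.6% and 11.5%. A pair of shNIT2 regions beyond the start of S100A11, chr1:152046584-152047992 (58 fragments) and chr1:152048406-152049692 (43 fragments), both overlapped shNT regions, of 9 fragments each. They lie beyond the 3 kb window, and the nearer of the shNT regions begins 9688 bp from the gene.

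The longest run without a shNIT2 region from S100A10 to S100A1 was 450514 bp, and the run that holds S100A8 and S100A9 was the third, 278550 bp. In shNT the longest runs were 295385 bp and 266491 bp, and the second of them holds S100A8 and S100A9. Just outside the window of S100A10 the nearest shNIT2 region lay 6048 bp away with a fold of 7.05, and just inside it the farthest lay 1453 bp away with a fold of 4.88. For S100A6 the region farthest inside lay 2363 bp from the gene with a fold of 2.86, and the nearest outside was 6989 bp away, the wide region of S100A4.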
